A study of Rattus norvegicus with 12 samples.

Results

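The response of WB311 cells to rapamycin was measured on 6 of the 12 arrays of the series, which are the 3 plates of WB311 cells given vehicle and the 3 plates given rapamycin. WB311 is a tumorigenic rat line that arose spontaneously in culture from WB-F344, a diploid epithelial line from adult rat liver, and it is labelled as resistant to rapamycin. The labels give a doubling time of 15.5 hr for WB311 and 42 hr for WB-F344, whose own 6 arrays were used for the test of a difference between the lines. Every plate was grown in medium with fetal bovine serum and was exposed for 24 hr to DMSO alone or to 50 nM rapamycin in DMSO. The 3 plates of a group came from 1 line, so the p-values below measure the spread between plates and not between independent lines.

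Rapamycin binds the small protein FKBP12, and the complex of both inhibits mTORC1, a kinase complex built on mTOR that is active when growth factors and amino acids are plentiful. Through S6 kinase and the 4E-BP proteins mTORC1 promotes protein synthesis, and through the transcription factors ATF4, SREBP and HIF-1 it is known to promote the expression of genes for amino acid supply, lipid synthesis and glycolysis. A related complex, mTORC2, phosphorylates the kinase Akt and is affected by rapamycin only after longer exposure in some cell types.

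The 6 arrays were alike in quality. Their correlations of log2 intensity across probe sets were 0.995 to 0.998, and the median SD between plates was 0.074 with vehicle and 0.061 with rapamycin on the log2 scale, against 0.15 and 0.13 in WB-F344. The difference between the 3′ and 5′ probe sets of beta-actin, which grows as RNA degrades, was 0.38 to 0.49 in WB311 and did not separate the treatments (two-sided exact permutation test, p = 0.4, where 3 plates against 3 cannot give less than 0.1). In WB-F344 it was 1.04 and 0.62 on the vehicle and rapamycin plates numbered 2 and 0.21 to 0.25 on the other 4 plates. Counts of differences between the lines are therefore also given without the plates numbered 2. This was done for the total and for the DNA replication, mitosis, matrix and CCN lists. Defining markers of hepatocytes were near background, with albumin at 33.5 with vehicle, and only Ttr of the 9 reached an intensity of 100. The epithelial markers Epcam and Cdh1 were at 14.4 and 20.7, while the keratin Krt8 was at 6103 and the mesenchymal filament protein vimentin at 11836. The junction protein Jup was at 480.2. The summed level of the 9 leukocyte markers was 717 to 837 with vehicle and 839 to 867 with rapamycin. Cd14 was the only one above 100, with means of 524 and 605, and was not called, while the pan-leukocyte marker Ptprc was at 22.9. The part of these markers in the results was not tested. In bulk RNA, fewer cells of a type and less RNA per cell cannot be told apart.

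Of 13135 probe sets with an average intensity of at least 100 in either group, 1319 were called, which is 10.0% of those tested. A call required an adjusted p under 0.05 in limma and a fold change of at least 1.2. The rises numbered 807 and the falls 512. Only 1 of the called probe sets had plates that overlapped between the treatments. Lack of overlap, where it is given below, therefore adds no support to a call. The changes were small. Only 79 rises and 41 falls exceeded 1.5-fold, 4 rises and 9 falls exceeded 2-fold, and none of either reached 3-fold. The median rise was 0.35 and the median fall -0.35 on the log2 scale, and the median standard error over tested probe sets was 0.061. Counted with 1 probe set for each gene, 458 of 8162 genes rose (5.61%) and 320 fell (3.92%), and these shares are the background against which each gene list below should be read. The median log2 fold change over these 8162 genes was 0.0035. When the WB-F344 arrays also entered the estimate of the spread, 463 probe sets remained past the thresholds. Some called genes passed the intensity filter only through their higher group, among them Procr, Bdh1, Krt7, Hsd17b7 and Stat2. With an average of at least 100 required in both groups, 1196 of 12666 probe sets were called.

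**Figure D1:**
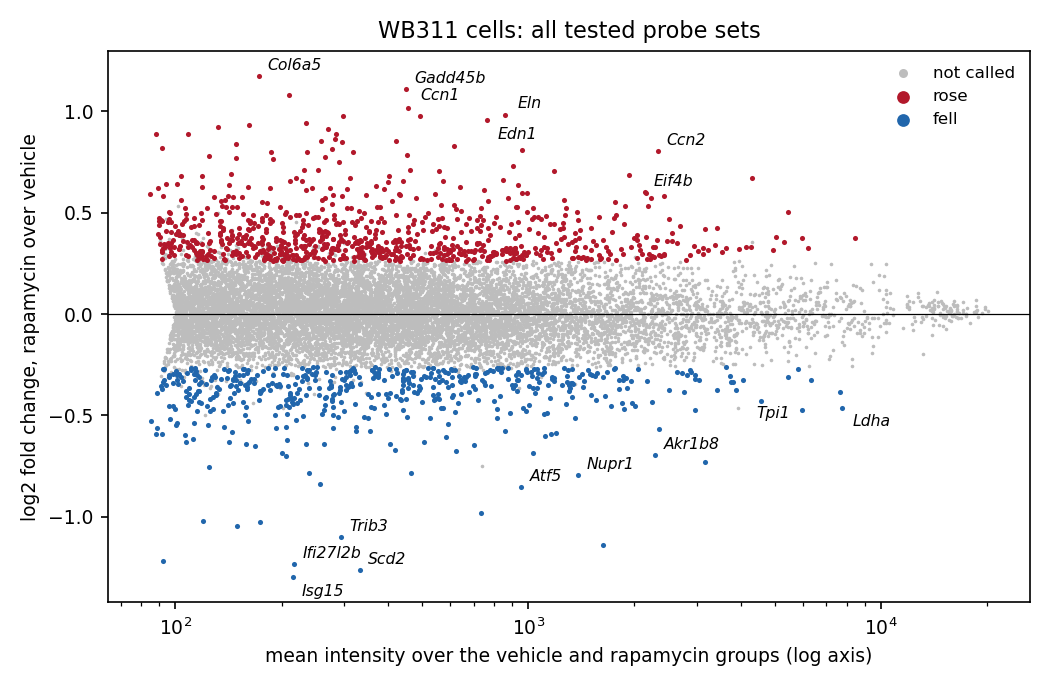
Each point is 1 of 13135 tested probe sets in WB311 cells, with its mean intensity on a log axis against its log2 fold change (rapamycin over vehicle). Rises are red (807), falls blue (512) and probe sets that were not called grey, and no called change is as large as 3-fold.

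The 20 largest falls in WB311 were picked from called genes whose plates did not overlap. Trib3, Atf5, Nupr1 and Ddit3 are in the ATF4 and CHOP list below, and Akr7a3 and Akr1b8 in the NRF2 list. The others were of varied function. Isg15, which encodes a ubiquitin-like protein induced by interferon, read 335, 259 and 326 on the 3 vehicle plates and 115, 141 and 118 on the rapamycin plates. The groups did not overlap, and Isg15 fell by 1.30 ± 0.11 on the log2 scale (standard error; 2.46-fold, adjusted p = 0.000704 from limma). Scd2, a stearoyl-CoA desaturase that makes monounsaturated fatty acids, was at 527, 455 and 426 with vehicle and 175, 197 and 215 with rapamycin. It fell by 1.26 ± 0.10 (2.40-fold, adjusted p = 0.000479), and a second, brighter probe set of Scd2 fell by 1.14. Ifi27l2b, another interferon-induced gene, was at 301, 281 and 329 and then at 134, 135 and 118, and fell by 1.23 ± 0.08 (2.35-fold, adjusted p = 0.000306). The pseudokinase gene Trib3, which CHOP and ATF4 induce, read 382, 443 and 383 with vehicle and 171, 209 and 184 with rapamycin, a fall of 2.14-fold. Procr, the endothelial protein C receptor, and Cth, cystathionine gamma-lyase of cysteine synthesis, fell by 1.05 and 1.03 on the log2 scale. Among the 20 genes with the largest falls, the other 14 ranged down to a 1.56-fold fall in the splicing regulator Mbnl3, and they included the inflammatory caspase Casp4, the ketone body enzyme Bdh1, the phospholipid remodeling enzyme Lpcat3, the thiopurine methyltransferase Tpmt and the reelin and apolipoprotein E receptor Lrp8.

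The 20 largest rises, picked in the same way, were in genes of varied function. Col6a5, a chain of collagen VI, was at 93.0, 124 and 101 with vehicle and at 258, 255 and 204 with rapamycin. This gene rose by 1.17 ± 0.12 on the log2 scale (2.26-fold, adjusted p = 0.00125). Gadd45b, a stress-induced regulator of MAP kinase signaling, read 275, 289 and 292 with vehicle and 586, 653 and 607 with rapamycin. It rose by 1.11 ± 0.06 (2.16-fold, adjusted p = 0.000185), with every rapamycin plate above every vehicle plate. Ccn1, a matricellular protein also called CYR61, was at 262, 310 and 337 and then at 602, 586 and 638, a rise of 1.01 ± 0.09 (2.02-fold, adjusted p = 0.00071). Elastin, encoded by Eln, was measured at 566, 580 and 584 on the vehicle plates and at 1117, 1148 and 1153 on the rapamycin plates, and rose by 0.98 ± 0.05. The other 16 of the 20 largest rises lay between 1.60-fold and 1.97-fold. They included the LIM domain protein Lmo7, the keratin Krt7, the kelch protein Klhl24, the tight junction protein occludin (Ocln), the gamma-secretase subunit Psen2, the chemokine Cx3cl1 and the noncoding RNA Ftx. With the spread taken from all 12 arrays, Eln, Lmo7, Lnc215 and Fam13b of these 20 genes lost their call.

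**Figure D2:**
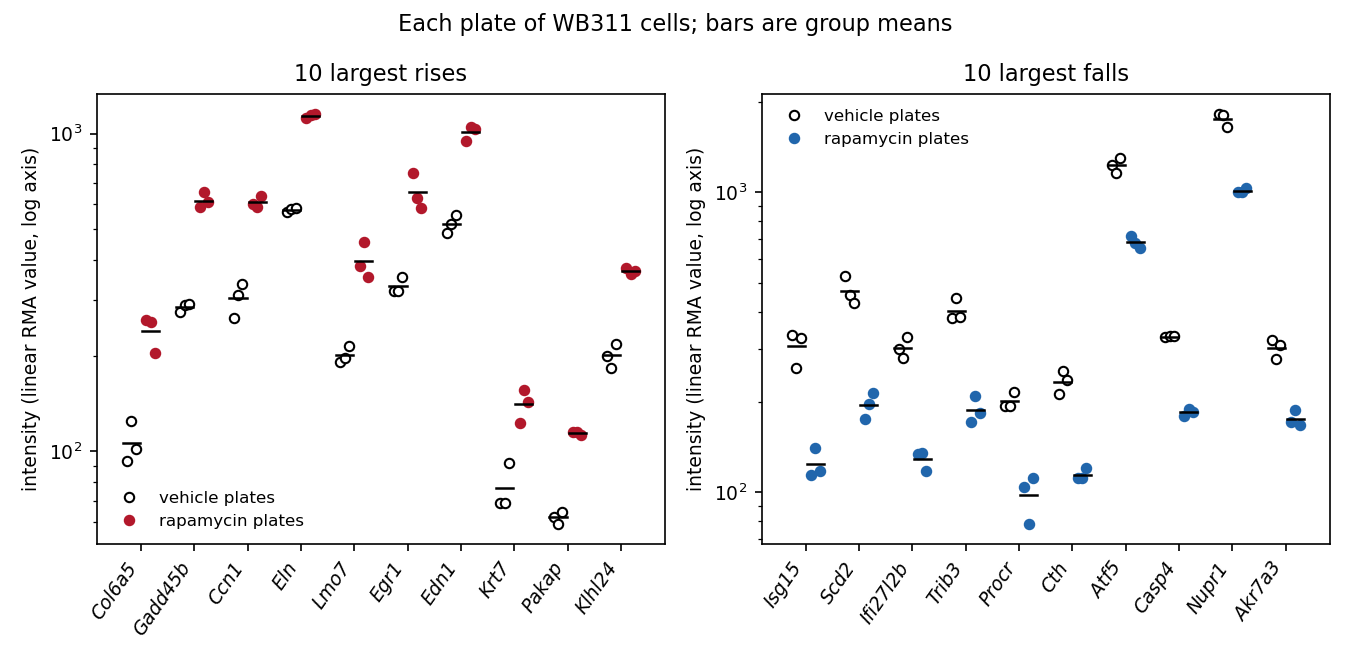
Intensity on a log axis on each of the 3 vehicle plates (open circles) and 3 rapamycin plates (filled circles) of WB311 for the 10 genes with the largest rises (left) and falls (right), with bars at the group means. The genes drawn were picked from called ones whose vehicle and rapamycin plates do not overlap.

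Cholesterol is made from acetyl-CoA by a chain of enzymes whose genes are activated together by the transcription factor SREBP-2. Of 20 tested genes of cholesterol synthesis and uptake, 14 fell and 0 rose, the log2 fold changes of all 20 were below 0, and the median was -0.41. All gene lists here were written with earlier results of these arrays known, so their counts describe these arrays and are not independent evidence. List members beyond the few with the smallest p were named after their values were seen. Hsd17b7, which acts late in the pathway, was at 136, 127 and 144 with vehicle and 98.6, 81.9 and 85.9 with rapamycin (log2 fold change -0.61 ± 0.08). Acat2, the thiolase that forms acetoacetyl-CoA, read 702, 689 and 724 with vehicle and 492, 431 and 469 with rapamycin (-0.60 ± 0.06, adjusted p = 0.0011). Fdps, which makes farnesyl diphosphate, went from 3344, 3437 and 3558 to 2477, 2540 and 2442 (-0.47 ± 0.05). In each of these 3 genes the treatments did not overlap. Along the pathway, the falls also took in the mevalonate enzymes Mvk (-0.31) and Mvd (-0.39), the isomerase Idi1 (-0.45), the squalene epoxidase Sqle (-0.28), the later steps Cyp51 (-0.44), Msmo1 (-0.41), Nsdhl (-0.41), Sc5d (-0.41) and Dhcr7 (-0.51), the regulator Insig1 (-0.46) and the cholesterol carrier Stard4 (-0.45). Sqle passed only without vehicle plate 2 among the fits that left out 1 array, and it did not pass in the methods' t-test, with the replicate block or with arrays centred on their median. The members that did not pass were Ebp (-0.26), Lss (-0.20), Pmvk (-0.16), Fdft1 (-0.09), Srebf2 itself (-0.05) and its escort Scap (-0.01). Of Mvk and Stard4, a second probe set did not give the same call. With the spread taken from all 12 arrays, 8 of the 20 fell. Where both groups had to reach 100, which Hsd17b7 did not, there were 13 falls.

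Fatty acids are built by the synthase from carbon that Acly and Acaca prepare, and are then elongated and desaturated. Of 14 tested genes of fatty acid synthesis, 8 fell and 0 rose, with a median of -0.30. Besides Scd2, the desaturase Fads1 was at 1364, 1236 and 1444 with vehicle and at 912, 860 and 893 with rapamycin (log2 fold change -0.60 ± 0.07). The falls were in desaturases and in enzymes that supply or extend the chain, with Fads2 at -0.44, the acetate enzyme Acss2 at -0.43, malic enzyme Me1 at -0.38, Elovl6 at -0.34, Acsl4 at -0.31 and the transcription factor Srebf1 at -0.29. The central enzymes had smaller values that did not pass, with Acaca at -0.22, Acly at -0.15 and Fasn at -0.14. In the fit to all 12 arrays, 3 of the 14 fell.

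ATF4 is a transcription factor whose level rises when amino acids run short or the endoplasmic reticulum is stressed, and CHOP, encoded by Ddit3, is one of its targets. Of 13 tested genes of this response, 6 fell and 0 rose, with a median of -0.22, and each fit that left out 1 array also gave 6 falls. Nupr1, a stress-induced chromatin protein, was at 1821, 1806 and 1642 with vehicle and at 1000.1, 1003.6 and 1031 with rapamycin. The rapamycin plates all lay below the vehicle plates (log2 fold change -0.79 ± 0.06, adjusted p = 0.0004). Atf5, a transcription factor related to ATF4, was at 1236, 1162 and 1296 and then at 714, 677 and 650.0 (-0.86 ± 0.06). The CHOP gene Ddit3 was at 263, 229 and 269 and then at 151, 160.1 and 158 (-0.70 ± 0.07, adjusted p = 0.0011). The brighter probe set of Trib3 stood at -0.98, the mTORC1 inhibitor Ddit4 at -0.59 and the leucine sensor Sesn2 at -0.39. Atf4 itself had a log2 fold change of -0.19 (adjusted p = 0.034), under the 1.2-fold threshold, and Chac1, Cebpb, Ppp1r15a, Herpud1, Ndrg1 and Cebpg were not called.

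The promoters of the called ATF4 and CHOP list members with a match to the C/EBP-ATF response element are shown because that element is the sequence through which ATF4 and CHOP act on their targets. They are RefSeq windows of GRCr8 from 250 bases before to 50 bases after the annotated start, written 5′ to 3′ on the strand of the gene, with the first window listed for a gene used throughout. The Nupr1 window is chr1:190645852-190646151 on the minus strand and the Trib3 window chr3:161275484-161275783 on the minus strand. Capitals mark the match to TGATGNAA, here on the reverse strand, which begins at position -55 in Nupr1 and at -21 in Trib3, counted from the start site.
Nupr1: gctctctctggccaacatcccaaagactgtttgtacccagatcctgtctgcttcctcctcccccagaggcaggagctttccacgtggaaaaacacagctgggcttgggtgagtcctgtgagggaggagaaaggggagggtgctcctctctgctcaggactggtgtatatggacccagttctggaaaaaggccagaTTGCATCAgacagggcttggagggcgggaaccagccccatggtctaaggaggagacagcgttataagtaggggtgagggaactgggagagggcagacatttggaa
Trib3: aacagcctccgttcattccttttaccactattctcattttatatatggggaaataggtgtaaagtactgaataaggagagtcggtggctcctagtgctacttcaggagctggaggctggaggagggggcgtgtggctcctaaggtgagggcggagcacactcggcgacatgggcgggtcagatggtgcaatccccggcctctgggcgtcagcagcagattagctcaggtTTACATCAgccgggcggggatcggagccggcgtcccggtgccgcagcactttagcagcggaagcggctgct
Among 26 genes of the ATF4 and amino acid synthesis lists with a window, 5 held this element (19.2%), 2 of them among the 11 that were called. Of all 27457 promoters 3.82% held it, of those of tested genes 1.77%, of those that rose 1.37% and of those that fell 3.75%. A match describes the letters of the window and does not show that a factor binds there.

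Genes of amino acid supply and of tRNA charging also fell in part. Of 16 tested genes for the synthesis of serine, asparagine, proline and cysteine, 5 fell and 0 rose, with a median of -0.22. Cth was at 212, 253 and 236 with vehicle and at 111, 112 and 120 with rapamycin (log2 fold change -1.03 ± 0.07). Psph, which makes the last step of serine synthesis, was at 1459, 1451 and 1399 and then at 898, 1002 and 973 (-0.59 ± 0.06). The rapamycin plates of both genes lay below their vehicle plates. Asparagine synthetase Asns was at -0.49, the mitochondrial serine hydroxymethyltransferase Shmt2 at -0.38 and the alanine aminotransferase Gpt2 at -0.28, of which Gpt2 did not pass in every fit that left out 1 array. Psat1 (-0.26) and Phgdh (-0.19) of the same serine pathway were not called. Of 11 amino acid transporters, 4 fell and 0 rose. These were the cationic carrier Slc7a3 (-0.59), the cystine carrier Slc7a11 (-0.37), the glutamine carrier Slc1a5 (-0.35) and the glycine carrier Slc6a9 (-0.33), whose second probe set gave another call. Slc1a5 lost its call without vehicle plate 1, rapamycin plate 1 or rapamycin plate 2, and in the fit to all 12 arrays the list held 2 falls. Of 19 cytosolic aminoacyl-tRNA synthetases, 4 fell and 0 rose, Wars1 by 0.35, Nars1 by 0.31, Yars1 by 0.29 and Sars1 by 0.28 on the log2 scale. The list median was -0.20, and 18 of the 19 were below 0. Of 28 chaperones and genes of the unfolded protein response, 7 fell and 0 rose, with Creld2 at -0.51, the co-chaperone Dnajc3 at -0.42 and Sel1l of the degradation complex at -0.36, while the major chaperone Hspa5, or BiP, had a log2 fold change of -0.26 and was not called.

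Glycolysis splits glucose into pyruvate, and several of its genes are targets of HIF-1. Of 15 tested genes, 6 fell and 0 rose, all 15 log2 fold changes were below 0, and the median was -0.26. Tpi1, triosephosphate isomerase, read 6914, 6956 and 6916 with vehicle and 5069, 5017 and 4906 with rapamycin. It fell by 0.47 ± 0.05 (adjusted p = 0.000976). Ldha, the lactate dehydrogenase subunit, was at 9017, 8987 and 9007 and then at 6446, 6666 and 6502 (-0.46 ± 0.05, adjusted p = 0.001). Pfkp, a phosphofructokinase, was at 420.0, 406 and 453 and then at 294, 273 and 290 (-0.58 ± 0.06). In all 3 genes the plates of each treatment were far closer to each other than to the other treatment. The liver phosphofructokinase Pfkl (-0.44), the glucose transporter Slc2a1 (-0.39) and aldolase Aldoa (-0.38) fell as well. The brightest probe set of phosphoglycerate kinase, Pgk1, had a log2 fold change of -0.21 and was not called, while another of its probe sets fell by 0.38. Of 14 other HIF targets, 3 fell and 1 rose. The falls were in the mitophagy receptor Bnip3 (-0.58), the pyruvate dehydrogenase kinase Pdk1 (-0.49) and Higd1a (-0.43). The rise was in carbonic anhydrase Car9 (0.31), which lost its call without rapamycin plate 2 or 3, while without rapamycin plate 1 or vehicle plate 1 the list held 2 rises. Hif1a itself was at -0.07 (adjusted p = 0.46). Of 8 genes of the pentose phosphate pathway limma called 0, with 5 at an unadjusted p under 0.05 and 0 called by the methods' t-test, and without rapamycin plate 1 or vehicle plate 3 it called 1 fall.

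**Figure D3:**
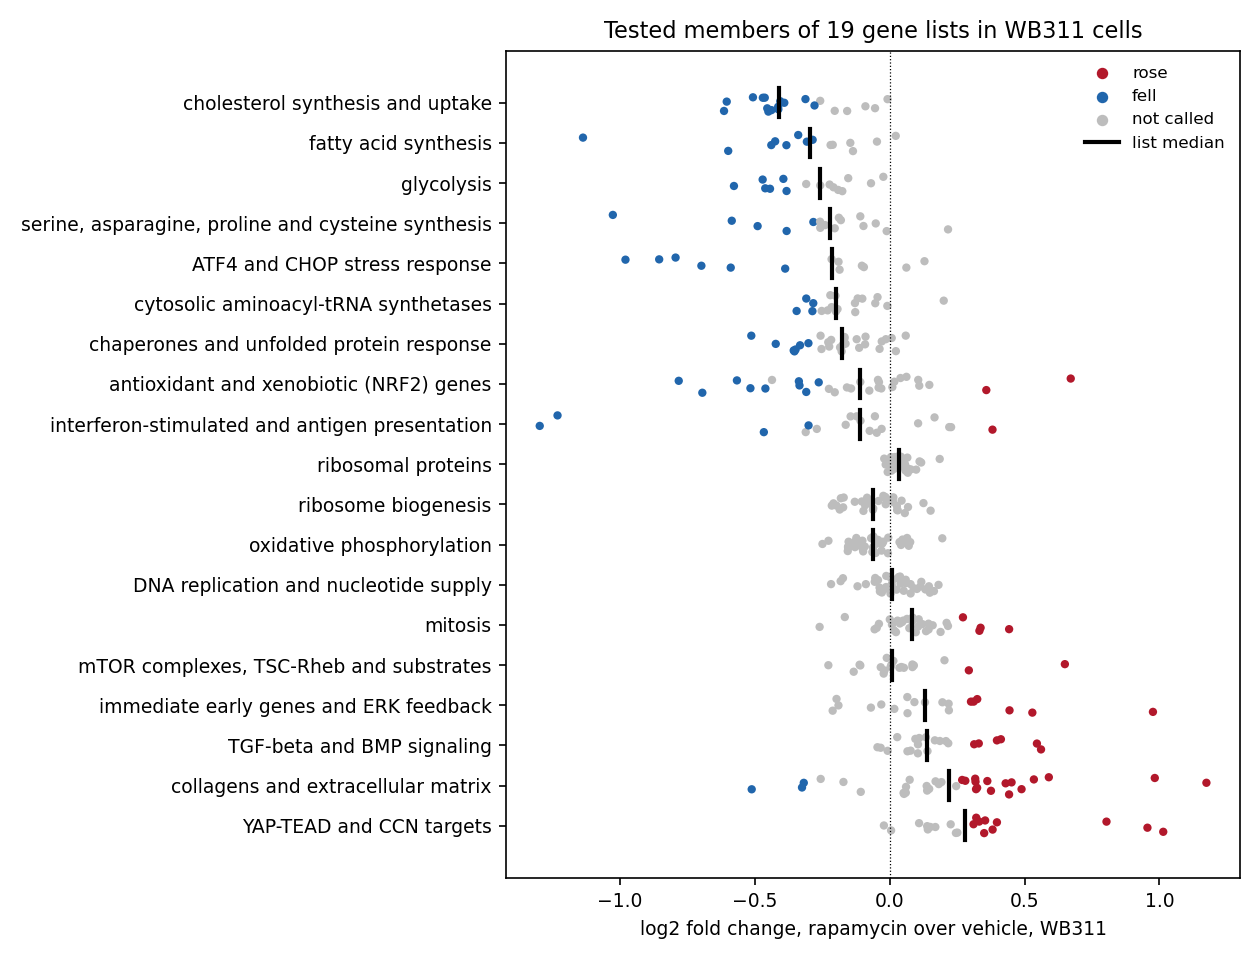
Log2 fold change (rapamycin over vehicle) in WB311 of each tested member of 19 gene lists, with rises in red, falls in blue, members that were not called in grey and the list median as a black bar. The lists of cholesterol synthesis and glycolysis lie wholly below 0, ribosomal proteins sit within a narrow band at 0, and the lists at the foot of the plot reach to the right.

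The interferon list held both the largest fall and an opposite rise. Of 19 tested genes of the interferon response and antigen presentation, 4 fell and 1 rose, with a median of -0.11. Beside Isg15 and Ifi27l2b, the falls were in Stat2, a subunit of the factor that carries the type I interferon signal (-0.47, with a second probe set that was called differently), and in the immunoproteasome subunit Psmb8 (-0.30). Stat2 was at 113, 115 and 118 with vehicle and at 84.6, 82.3 and 84.0 with rapamycin. Ifi27 rose from 1071, 1099 and 1114 to 1398, 1448 and 1429 (0.38 ± 0.05, adjusted p = 0.0022). In both genes the treatments did not overlap. The antigen presentation genes B2m (0.10), Tapbp (0.22) and Tap1 (-0.15), the factors Irf1 (0.17) and Irf9 (-0.03) and the membrane proteins Bst2 (-0.27), Ifitm2 (-0.05) and Ifitm3 (-0.11) were not called. Stat2 passed the intensity filter only through its vehicle plates, and where both groups had to reach 100 there were 3 falls. With a minimum intensity of 200 there were 2 falls, and without vehicle plate 3 there were 3 rises.

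The windows of Ifi27 and Psmb8 are shown because both changed, in opposite directions, and both hold the interferon response element core. Ifi27 lies at chr6:128355062-128355361 on the plus strand, with matches that begin at -169 and -84, and Psmb8 at chr20:4656982-4657281 on the minus strand, with a match on the reverse strand that begins at -3. Capitals mark the matches to GAAANNGAA.
Ifi27: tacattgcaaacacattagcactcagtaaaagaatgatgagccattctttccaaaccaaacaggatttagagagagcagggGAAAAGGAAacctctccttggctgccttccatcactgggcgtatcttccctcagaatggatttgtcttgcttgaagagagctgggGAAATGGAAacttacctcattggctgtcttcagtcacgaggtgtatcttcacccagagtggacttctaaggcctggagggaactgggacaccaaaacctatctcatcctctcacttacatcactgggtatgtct
Psmb8: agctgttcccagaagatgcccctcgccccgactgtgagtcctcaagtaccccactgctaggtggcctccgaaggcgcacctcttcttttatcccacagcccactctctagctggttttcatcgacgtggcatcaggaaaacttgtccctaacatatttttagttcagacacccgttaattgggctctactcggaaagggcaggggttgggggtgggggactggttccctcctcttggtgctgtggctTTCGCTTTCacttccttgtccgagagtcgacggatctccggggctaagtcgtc
Of 16 interferon list genes with a window, 11 held the core (68.8%), only 2 of them among the 3 that were called. The core was in 6.77% of tested genes and 9.5% of all promoters. Among genes that rose the share was 7.67% and among genes that fell 7.12%.

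Among 21 genes of NF-kappaB, chemokines and inflammation, 5 rose and 4 fell. The falls were in Procr, in the interferon-inducible chemokine Cxcl10, in the mitochondrial superoxide dismutase Sod2 (-0.42) and in Nfkbib (-0.34). Cxcl10 was at 790.0, 885 and 896 with vehicle and at 540.2, 534 and 566 with rapamycin (-0.65 ± 0.06, adjusted p = 0.000976). The rises were in Cx3cl1 (0.71), Nfkbiz (0.57), Nfkbia (0.47), the neutrophil chemokine Cxcl1 (0.32) and Csf1 (0.28). Without vehicle plate 1, 3 of these rises passed. Where both groups had to reach 100, which Procr did not, there were 3 falls. NRF2 induces genes that conjugate or reduce reactive compounds. Of 29 such genes 9 fell and 2 rose, with a median of -0.11. Akr1b8, an aldo-keto reductase, was at 2825, 2852 and 2809 with vehicle and at 1686, 1785 and 1772 with rapamycin (-0.70 ± 0.05, adjusted p = 0.0004). The quinone reductase Nqo1 was at 2758, 2903 and 2765 and then at 1875, 1936 and 1876 (-0.57 ± 0.05). Both genes fell without overlap, as did Akr7a3 (-0.78), and Hmox1 (-0.52), Srxn1 (-0.46), Gsta4 (-0.34), Gpx2 (-0.33), Gstm1 (-0.31) and the metallothionein Mt2A (-0.26) completed the falls. The NRF2 gene itself, Nfe2l2, had a log2 fold change of 0.06, and the glutathione synthesis genes Gclm and Gclc were at -0.20 and -0.11, none of them called. The rises were in the aryl hydrocarbon receptor targets Cyp1a1 (0.67) and Cyp1b1 (0.36), and without any 1 of the rapamycin plates, or without vehicle plate 1, only 1 rise passed. In the fit to all 12 arrays 5 of the falls passed.

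Immediate early genes are transcribed within minutes of a growth signal, and many respond to ERK and to serum response factor. Of 19 tested, 6 rose and 0 fell, with a median of 0.13. Egr1, a zinc finger transcription factor, was at 319, 320 and 355 with vehicle and at 749, 629 and 584 with rapamycin. It rose by 0.98 ± 0.09 (adjusted p = 0.000963), with the lowest rapamycin plate well above the highest vehicle plate. The phosphatase Dusp1 (0.53), the AP-1 subunits Junb (0.44) and Jun (0.31), Ier3 (0.32) and Klf10 (0.30) also rose. The ERK feedback genes Dusp6 (0.22), Spry2 (0.22) and Spry4 (0.20) were not called.

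CCN1 and CCN2 are secreted matricellular proteins and common readouts of the YAP and TEAD transcription factors. Of 20 genes of the YAP-TEAD and CCN list, 10 rose and 0 fell, with a median of 0.28. Ccn2, also called CTGF, was at 1608, 1755 and 1726 with vehicle and at 2808, 2982 and 3094 with rapamycin (0.80 ± 0.06, adjusted p = 0.000434). Edn1, the vasoactive peptide endothelin-1, was at 488, 521 and 554 and then at 946, 1050 and 1035 (0.96 ± 0.07). The treatments did not overlap in either gene. Smaller rises were seen in Tgfb2 (0.40), the phosphatase Ptpn14 (0.38), the Hippo regulators Amotl2 (0.35), Ajuba (0.35), Lats2 (0.31) and Nuak2 (0.32) and the membrane repair protein Myof (0.33). The TEAD factor Tead1 (0.11), the YAP paralog Wwtr1 (0.14), Axl (0.15) and Ankrd1 (0.23) were not called. The same direction was seen in TGF-beta and BMP signaling, where 6 of 22 genes rose and 0 fell (median 0.14). These were Bmp6 (0.56, whose second probe set was called differently), the inhibitory Smad7 (0.55), Smad3 (0.41), Tgfb2, Id1 (0.33) and Skil (0.31), and in the fit to all 12 arrays 2 of them passed.

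The Egr1 window is shown because it is the called immediate early or YAP list gene with a CArG box, the element bound by serum response factor. It lies at chr18:26736828-26737127 on the plus strand, and capitals mark the 2 matches, which begin at -105 and -83.
Egr1: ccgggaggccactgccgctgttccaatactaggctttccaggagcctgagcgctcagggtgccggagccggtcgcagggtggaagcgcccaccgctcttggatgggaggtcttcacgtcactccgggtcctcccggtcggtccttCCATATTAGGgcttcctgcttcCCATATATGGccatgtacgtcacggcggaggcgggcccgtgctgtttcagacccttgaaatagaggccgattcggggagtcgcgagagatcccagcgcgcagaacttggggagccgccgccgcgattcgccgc
Of 29 genes of these lists with a window, 4 held a CArG box (13.8%), only 1 of them among the 12 that were called. The box was in 1.35% of tested genes and 1.64% of all promoters. The TEAD site ACATTCC was in 5.75% of the windows of genes that rose, 3.0% of those that fell, 2.68% of tested genes and 3.9% of all promoters.

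The extracellular matrix is the scaffold of collagens, laminins and other proteins around cells. Of 34 tested genes, 16 rose and 3 fell, with a median of 0.22. Beside Col6a5 and Eln, the fibril-associated collagen Col12a1 was at 359, 307 and 363 with vehicle and at 482, 523 and 541 with rapamycin (0.59 ± 0.08). Fibronectin, Fn1, was at 7274, 7302 and 7453 and then at 9060, 9750 and 9775 (0.38 ± 0.05, adjusted p = 0.0032). The laminin chain Lama5 was at 1419, 1459.8 and 1561 and then at 1951, 2164 and 2115 (0.49 ± 0.06). All rapamycin plates of these 3 genes were above all vehicle plates. The other rises were in the prolyl hydroxylase P4ha3 (0.53), the calcification inhibitor Mgp (0.45), the proteoglycans Bgn (0.44), Hspg2 (0.43) and Ogn (0.36), the collagens Col5a2 (0.32), Col18a1 (0.32), Col1a2 (0.32) and Col4a2 (0.28), Lamb2 (0.32) and nidogen-1, Nid1 (0.27). The falls were in osteopontin, Spp1 (-0.51), the lysyl hydroxylase Plod1 (-0.33) and the lysyl oxidase Loxl2 (-0.32). Without rapamycin plate 3, 10 genes of the list rose, and with the spread of all 12 arrays 5 rose and 1 fell. Col14a1, another fibril-associated collagen among the largest rises, rose by 0.75. Of the 10 mesenchymal markers 5 were above 100, and their summed level, 13648 to 13969 with vehicle and 13264 to 13892 with rapamycin, was mostly vimentin. Vimentin had means of 11836 and 11300, Acta2 of 312 and 254, Col1a1 of 200.1 and 222 and Col3a1 of 479.9 and 543, none of them called, while Col1a2 rose. The part of these markers in the result was not tested. Of 9 matrix proteases and inhibitors limma called 0, with 3 at an unadjusted p under 0.05 and 0 by the methods' t-test, and without rapamycin plate 3 it called 1 rise and 1 fall. Of 7 integrins only the laminin receptor subunit Itga6 was called, which fell by 0.46.

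The transcripts of the targeted pathway were nearly all within the threshold. Of 20 genes of the mTOR complexes, of TSC and Rheb and of their substrates, 2 rose and 0 fell, with a median of 0.01. Deptor, an inhibitory partner of mTOR, was at 283, 320.3 and 334 with vehicle and at 506, 470 and 491 with rapamycin (0.65 ± 0.07, adjusted p = 0.0014), with no overlap. The mTORC2 subunit Rictor was at 410.2, 414 and 443 and then at 560.3, 505 and 488, a rise of 0.29 that lost its call without vehicle plate 1, rapamycin plate 1 or rapamycin plate 2. Mtor (0.04), Rptor (-0.03), the FKBP12 gene Fkbp1a (-0.11), S6 kinase 1, Rps6kb1 (0.08), and the 4E-BP1 gene Eif4ebp1 (-0.23, adjusted p = 0.019 and under 1.2-fold) were not called. Of 18 genes of insulin, IGF, Akt and FoxO signaling, 6 rose and 1 fell, with a median of 0.18. The insulin receptor substrate Irs2 was at 289, 301 and 333 and then at 469, 464 and 479 (0.62 ± 0.06). Klhl24 rose by 0.80 in its brightest probe set, and Igfbp6 (0.36), the receptor Igf1r (0.32), Trib1 (0.31) and Sgk1 (0.27) rose less. Without rapamycin plate 3, 3 of these rises passed. The fall was in Sesn1 (-0.56), and it was lost without vehicle plate 1 or 3 or rapamycin plate 2 or 3. Akt1 (0.03) and the growth factor Igf2, whose means of 45.6 and 60.6 were under the intensity filter, gave no call.

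Ribosomal protein mRNAs are translated under strong control by mTORC1. Of 39 tested ribosomal protein genes 0 were called, and their log2 fold changes ran from -0.02 to 0.19 with a median of 0.03. Of 33 genes of ribosome biogenesis 0 were called (median -0.06), and of 41 of oxidative phosphorylation 0 (median -0.06). At an unadjusted p under 0.05 these lists held 3, 8 and 12 genes, and the methods' t-test called 0 in each. Without vehicle plate 3, rapamycin plate 2 or rapamycin plate 3, limma called 1 fall in oxidative phosphorylation. The log2 fold changes of Rrp9 (-0.22, adjusted p = 0.044), Bysl (-0.21, adjusted p = 0.023) and the cytochrome c1 gene Cyc1 (-0.25, adjusted p = 0.017) lay under 1.2-fold. Above 0 were 10 of the 33 genes of ribosome biogenesis and 8 of the 41 of oxidative phosphorylation. Of 33 translation factors, Eif4b, a cofactor of the helicase eIF4A, rose from 1700.5, 1732 and 1676 to 2478, 2610 and 2660 (0.60 ± 0.05), and the eIF2B subunits Eif2b3 and Eif2b4 each fell by 0.31. Without rapamycin plate 1 there were 2 rises among them. Of 32 genes of lysosome and autophagy 3 rose and 0 fell, which were the beta-galactosidase Glb1 (0.33), Ctsa (0.29) and Map1lc3a (0.29), and without vehicle plate 1 only 1 passed.

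WB311 is labelled as resistant, and its genes of DNA replication, mitosis and the G1 to S step were counted separately. Of 40 tested genes of DNA replication and nucleotide supply 0 were called, with log2 fold changes between -0.22 and 0.18 and a median of 0.01, while 7 had an unadjusted p under 0.05 and the methods' t-test called 0. Pcna, the sliding clamp of DNA polymerase, was at 8335, 8504 and 8328 with vehicle and 8151, 8284 and 8224 with rapamycin (-0.03 ± 0.05). Of 32 genes of mitosis 4 rose and 0 fell, namely the kinetochore proteins Cenpf (0.44) and Cenpe (0.34), the spindle protein Nusap1 (0.33) and topoisomerase Top2a (0.27), of which Top2a was lost without vehicle plate 2 or rapamycin plate 3. Without vehicle plate 1 or rapamycin plate 3 there was 1 fall, and in the fit to all 12 arrays 1 of the rises passed. Of 24 regulators of the G1 to S step, 5 rose and 1 fell. Cyclin D1, Ccnd1, was at 1478, 1364 and 1443 with vehicle and at 2124, 2124 and 2042 with rapamycin (0.55 ± 0.05, adjusted p = 0.0009). Myc was at 1098, 1104 and 1219 and then at 1585, 1587 and 1671 (0.50 ± 0.06). Both genes rose on all rapamycin plates relative to all vehicle plates. Mxd3 (0.45), the CDK inhibitor Cdkn2d (0.29) and the retinoblastoma relative Rbl1 (0.28) rose, Mxd4 fell by 0.41, and Ccne1 (0.04), Cdk2 (-0.01) and the p27 gene Cdkn1b (0.08) were not called. Without vehicle plate 3 the list held 2 falls.

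Other groups held few calls. Of 15 genes of p53, GADD45 and growth arrest, Gadd45b rose and Sesn1, Tob1 (-0.36) and Gadd45a (-0.30) fell, and there were 3 rises without rapamycin plate 1 and 2 without vehicle plate 3. Of 22 apoptosis regulators, Casp2 rose by 0.31 and Casp4 fell from 328, 332 and 331 to 179, 190.0 and 186 (-0.84 ± 0.05, adjusted p = 0.000208), and without rapamycin plate 1, vehicle plate 2 or vehicle plate 3 there were 2 rises. Of 18 genes of epithelial junctions and keratins, Krt7, Krt14 (0.41) and Ocln rose and Krt18 (-0.44) and Krt19 (-0.34) fell, but the list held 0 falls without rapamycin plate 1 and 1 without any other single array. The summed level of the biliary and progenitor markers, which include Krt7, Krt19 and Spp1, was 720 to 811 with vehicle and 651 to 713 with rapamycin. Spp1 had the highest level of them, with means of 414 and 290, against 76.5 and 141 for Krt7 and 110 and 86.7 for Krt19. The sum therefore does not describe the keratins. Krt7 was dim, at 68.6, 69.0 and 91.9 with vehicle and 123, 156 and 143 with rapamycin. Where both groups had to reach 100, the junction and keratin list held 2 rises and 1 fall. Of 20 genes of the actin cytoskeleton 4 rose and 0 fell, with the caldesmon gene Cald1 at 0.42 and the myosin Myh9 at 0.37, and without rapamycin plate 3 there were 2 rises. Of 13 growth factors and receptors, Edn1, neuregulin-1 (Nrg1, 0.47) and Fgfr3 (0.30) rose, while 7 rose without vehicle plate 3 and 5 without rapamycin plate 3, and 1 fell without vehicle plate 1.

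The effect of rapamycin in WB311 was then set against that in WB-F344, by a test of the difference between both effects. Of 14214 probe sets, 1517 differed (10.7%), with a more positive log2 fold change in WB311 for 1044 and a more negative one for 473. Normalization by cyclic loess gave a split of 877 and 718. With the replicate number within a line as a block, 3229 differed, and with the WB-F344 plates numbered 2 left out, a setting chosen after seeing the data, 2974. Without WB311 rapamycin plate 3 the count was 989. Genes of proliferation held the highest shares of such differences among the lists. Of the 40 genes of DNA replication, 34 had a higher log2 fold change in WB311 and 0 a lower one, with a median of 0.01 in WB311 and -0.51 in WB-F344. Without single arrays this count was 26 to 34, and 37 without the plates numbered 2. Of 32 mitosis genes, 24 were higher in WB311 and 0 lower, with medians of 0.08 and -0.62. Without single arrays 21 to 28 were higher, and without the plates numbered 2 29 were. On the log2 scale the change of Cdt1, a replication licensing factor, was -0.04 in WB311 and -0.80 in WB-F344, and the mitotic kinase Aurka had values of 0.02 and -0.93. By contrast, of the 20 genes of cholesterol synthesis only Msmo1 differed (-0.41 in WB311 and 0.04 in WB-F344), and the list medians were -0.41 and -0.27. In glycolysis the medians were -0.26 and -0.22, and Pfkp was at -0.58 in WB311 and 0.13 in WB-F344.

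**Figure D4:**
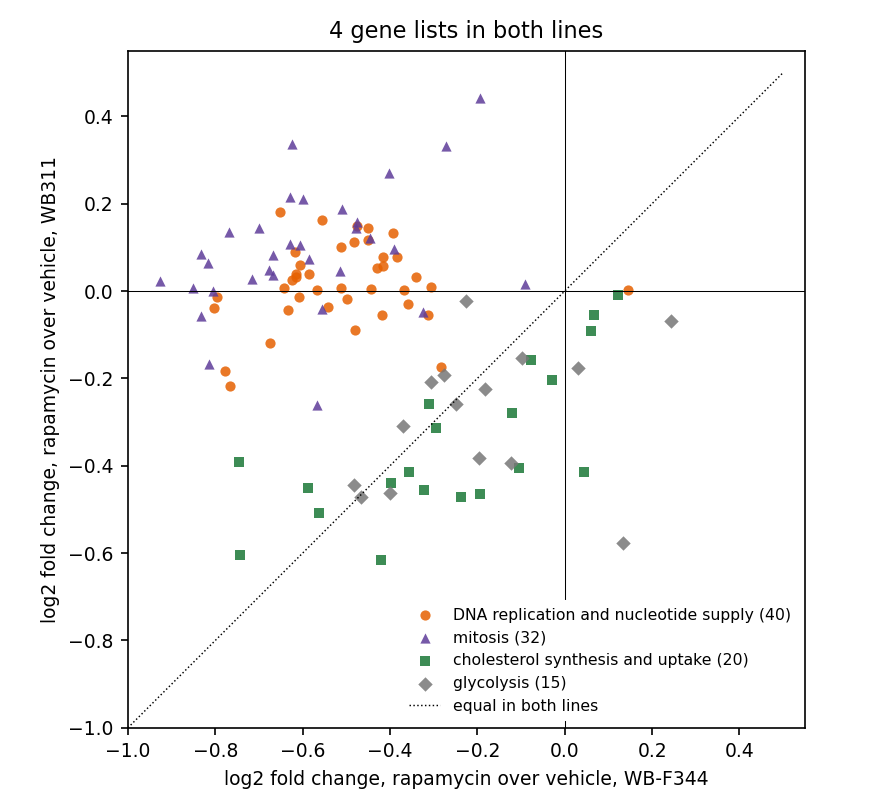
Log2 fold change (rapamycin over vehicle) in WB-F344 on the horizontal axis and in WB311 on the vertical axis for the tested members of 4 gene lists, with a dotted line where both are equal. On the WB311 axis genes of DNA replication lie between -0.22 and 0.18 and genes of mitosis between -0.26 and 0.44. All but 1 of these genes lie below 0 on the WB-F344 axis, while genes of cholesterol synthesis and glycolysis lie mostly below 0 on both.

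Genes of the matrix and of the CCN list were more positive in WB311. In the matrix list 14 of 34 had a higher and 2 a lower log2 fold change there, with medians of 0.22 in WB311 and -0.18 in WB-F344. Col12a1 was at 0.59 in WB311 and -1.63 in WB-F344, and Ogn at 0.36 and -1.83. Without WB311 vehicle plate 2 or rapamycin plate 3, 9 were higher. Without the WB-F344 plates numbered 2 there were 18 higher and 3 lower. Col6a5, one of the 14, was under 100 in both WB-F344 groups. Both genes that were lower with all plates in the fit, Mgp and Spp1, rose in WB-F344, by 3.77 and 1.86 on the log2 scale. Of the CCN list 6 of 20 were higher in WB311, and 3 without WB311 vehicle plate 1 or 2, WB311 rapamycin plate 2, or WB-F344 plate 3 of either treatment. Without the WB-F344 plates numbered 2, 8 were higher. One of the 6, Cavin2, was under 100 in both WB-F344 groups. Ccn2 was at 12090, 13970 and 12530 on the WB-F344 vehicle plates and at 12630, 14090 and 12440 on the rapamycin plates, with a log2 fold change of 0.02, and both means were above those in WB311. Gadd45b was at 2201, 2019 and 2217 and then at 2120, 2163 and 2066 in WB-F344, again above both groups of WB311, and the effects differed by 1.13 ± 0.09 on the log2 scale (adjusted p = 6.5e-05). Deptor rose by 0.65 in WB311 and fell by 0.75 in WB-F344 on the log2 scale. Cxcl10 was at 74.4, 52.7 and 49.6 and then at 126, 105 and 117 in WB-F344, the opposite direction to WB311, and Akr1b8 was at 1552, 1363 and 1401 and then at 2014, 1714 and 1908. Myc rose in both lines, by 0.50 in WB311 and 1.44 in WB-F344, and that difference was called.

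**Figure D5:**
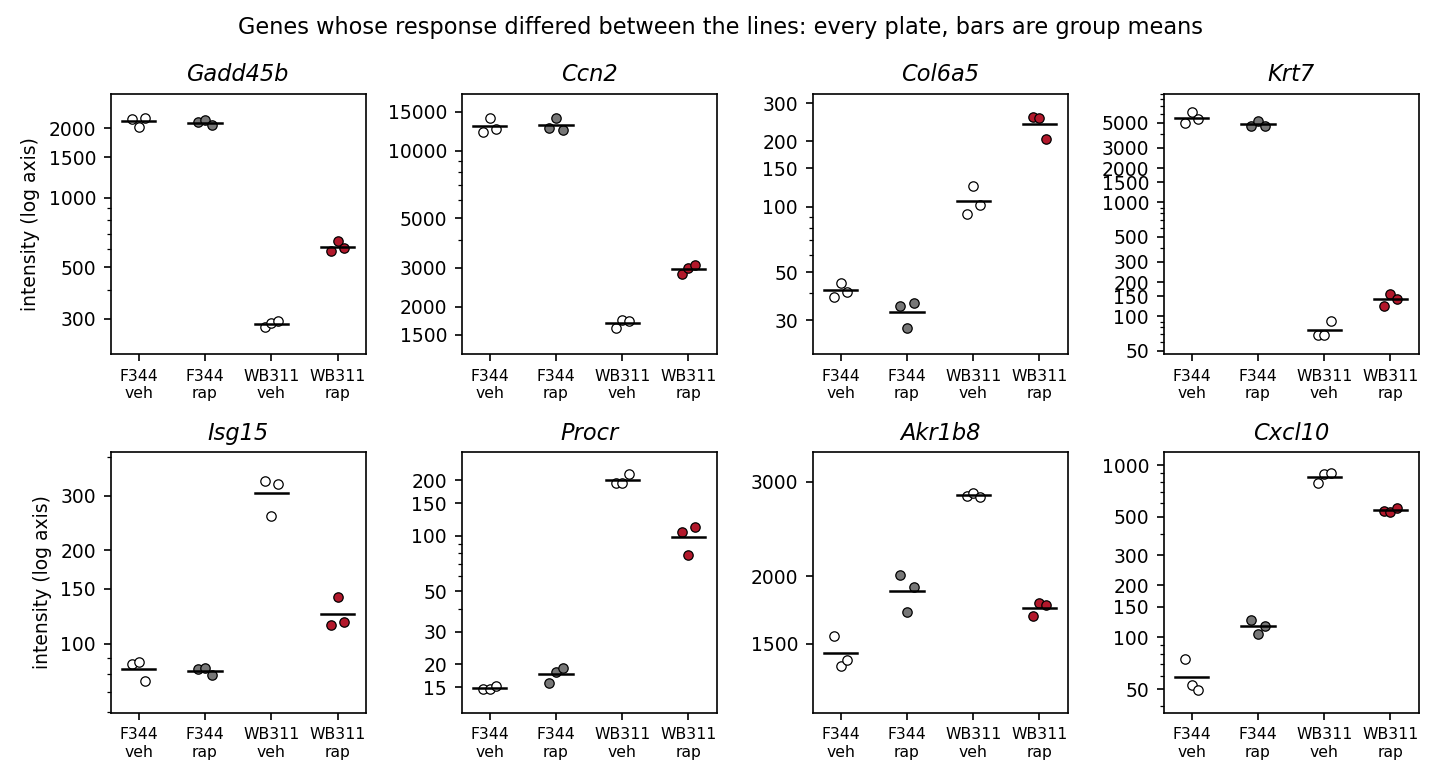
Intensity on a log axis on each of the 3 plates of the 4 groups, with bars at the group means, for 8 genes among the largest changes in WB311 whose effect differed between the lines. Gadd45b, Ccn2 and Krt7 are higher in WB-F344 than in WB311 under both treatments, and Cxcl10 and Akr1b8 move in opposite directions in the lines. Col6a5, Isg15 and Procr were under 100 in both WB-F344 groups and were tested only because of their level in WB311.

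The remaining motifs were counted in the promoter windows in the same way, on both strands, in 6912 of the 8162 tested genes. The sterol regulatory element TCACNCCAC was in 0 of the 27 windows of the cholesterol and fatty acid lists and in 1.12% of the genes that fell, 0.548% of those that rose and 1.11% of tested genes. The AP-1 site TGANTCA was in 9.36% of the genes that fell, 3.29% of those that rose, 4.31% of tested genes and 7.33% of all promoters. For the FoxO site GTAAACA the shares were 1.5%, 3.56%, 2.29% and 3.76%, for the E2F site TTTCCCGC 1.87%, 2.74%, 2.58% and 1.03%, and for the CLEAR E-box TCACGTGA 1.12%, 1.37%, 1.95% and 0.867%. The EGR site GCGNGGGCG was in 7.87% of genes that fell, 10.7% of those that rose, 10.7% of those tested and 5.29% of all promoters. Matches of different motifs overlapped in at most 5 of the tested windows for any pair. These shares carry no test, and a window without a match says only that these letters are not in it.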

How the data were processed

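RNA from triplicate plates of each group was hybridized to rat Affymetrix arrays. The deposited values are linear intensities that the authors had summarized with RMA, of which the version is not given in the sources used here, and log2 was taken of them. Control probe sets (57 of 31099) were left out. Of the other 31042, 20826 had 1 gene symbol in the platform annotation, 436 several and 9780 none, and only those with 1 were named. Arrays carry no read depth, so the number of plates limits the precision.

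Probe sets with a group mean of at least 100 were tested with limma 3.58.1 in R 4.3.3 on the 6 WB311 arrays, with Benjamini-Hochberg adjustment, an adjusted p under 0.05 and a fold change of at least 1.2. The difference between the lines was an interaction term on all 12 arrays. The fits were tested on simulated data. For lists, the brightest probe set stood for each gene. Named genes were, per direction, the 20 largest called changes without overlap of plates, members of the lists, and genes that the study names. The members and lists were chosen with earlier results of these data known. Plates with the same number did not deviate together in WB311 (correlations of -0.056, -0.012 and -0.17) but did in WB-F344 (0.69, 0.87 and 0.57). There, however, vehicle 1 also went with rapamycin 3 (0.605), and vehicle 3 with rapamycin 1 (0.586). Number 2 of either treatment ran against numbers 1 and 3 of the other (-0.804 to -0.673). These values therefore do not show that numbers 1 and 3 mark pairs. The numbers served as pairs only in the replicate block, within each line. Python 3.11.15 with pandas 2.3.3 was used for tables. Alternatives were other normalizations, filters, variance estimates and tests, the replicate block, and leaving out each array.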

Additional observations from a re-analysis of the deposited data

Results flagged for a closer look

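Of the 40 genes with the largest changes in WB311, 17 had a rapamycin effect that differed from that in WB-F344 in limma's interaction test. Over all tested probe sets 1517 of 14214 differed (10.7%), and of the 1319 called in WB311, 288 did. The 40 were picked by their effect in WB311, which is 1 term of the difference. That choice favors a high count and large differences, so neither gives independent support. The differences below are log2 fold changes in WB311 minus those in WB-F344. The effect was more positive in WB311 for Smtnl2 (1.54), Col6a5 (1.51), Col14a1 (1.49), Gadd45b (1.13), Krt7 (1.07), Ccn2 (0.78), Ccn1 (0.63) and Cntln (0.62). It was more negative for Cxcl10 (-1.64), Procr (-1.29), Isg15 (-1.28), Akr1b8 (-1.08), Akr7a3 (-0.99), Ifi27l2b (-0.96), Cth (-0.75) and Lrp8 (-0.72). For Scd2 the probe sets disagreed. The dimmer one gave -0.94, while the brighter one went from 153 to 51.5 in WB-F344, with log2 fold changes of -1.14 in WB311 and -1.57 in WB-F344, and gave a difference of 0.43 that was not called. Of these genes, 16 kept the call in all 18 alternatives. The dimmer probe set of Scd2 kept it in 7, with adjusted p values from 0.0134 to 0.121. A further limit holds for 6 of the 17, which were under 100 in both WB-F344 groups and were tested only because of their level in WB311. Their differences are descriptions and give no support, also where the call was kept in all alternatives. Their WB-F344 means with vehicle and rapamycin were 14.9 and 17.6 for Procr, 36.6 and 41.6 for Akr7a3, 41.2 and 32.8 for Col6a5, 47.0 and 36.4 for the dimmer probe set of Scd2, 51.0 and 53.5 for Cntln, and 83.0 and 81.8 for Isg15.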

How the results depend on the processing

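With variances from all 12 arrays, 463 probe sets were called in WB311 (235 rises, 228 falls), and the t-test with unequal variances called 5 (2 rises, 3 falls). Without an intensity filter there were 522 rises. With at least 100 required in both groups there were 1196 calls (732 rises, 464 falls). The replicate block gave 1159 calls in WB311, where the numbers do not pair the plates. Leaving out 1 array gave 1004 to 1455 calls, with 593 to 1013 rises and 411 to 631 falls. Without vehicle plate 2 the share of rises was 49.4%, and without vehicle plate 3 it was 69.6%. For the difference between the lines, the replicate block gave 3229 calls (2224 higher and 1005 lower in WB311), and leaving out the WB-F344 plates numbered 2, chosen after seeing the data, gave 2974 (2013 and 961). Cyclic loess gave 718 lower. Leaving out 1 array gave 989 to 1879 calls, 660 to 1385 higher and 311 to 714 lower, of which the lowest total came without WB311 rapamycin plate 3. Of 133 called probe sets chosen by the naming rule, 120 kept the call with each array left out and 0 changed direction. The causes were not tested. With 3 plates a group, exact permutation tests cannot give a p under 0.1, and probe sets near the lowest intensities carry little information on change.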
